A study of Mus musculus with 6 samples.

Results

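Some annotated mouse miRNAs have probes that resemble the B1 repeat. Those listed under that description were mmu-miR-1196-5p, mmu-miR-706, mmu-miR-3470a, mmu-miR-709, mmu-miR-5118 and mmu-miR-2861, written without the species prefix from here on. They were taken by name from the non-control spots of the arrays, 6 of 1247 miRNAs. The members were chosen by name with their IL-6 minus control intensity differences on these same arrays known, so these differences are given as a description and carry no test. The cells were mouse 3T3-L1 adipocytes, a clonal embryonic fibroblast line made to differentiate into adipocytes with hormones. There were 2 arrays of cells given recombinant interleukin-6 (IL-6, an inflammatory cytokine) at 1 ng/ml since the induction of differentiation, and 4 arrays of untreated control cells. Both groups received isobutyl-methylxanthine, dexamethasone, insulin and rosiglitazone at induction and were harvested on day 8. The labels do not say whether the arrays stand for separate cultures, so their spread may be technical, and their small number limits the precision.

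A miRNA is a short RNA that guides Argonaute proteins to messenger RNAs, which it finds mainly through the seed, bases 2 to 8 from its 5′ end. B1 elements are short interspersed repeats of rodent genomes that descend from the RNA of the signal recognition particle. They can be transcribed by RNA polymerase III from their own promoter, or as a stretch of a longer transcript in whose introns or untranslated ends they lie. Fragments of such transcripts can therefore carry the same letters as a miRNA annotated in a repeat, and a short array probe may read both. Whether any probe did so here was not tested. Among the members, miR-709 has been reported to restrain the differentiation of 3T3-L1 cells through Gsk3b, and miR-2861 to act on the histone deacetylase Hdac5 in mouse osteoblasts.

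The mature sequences show how far the members differ as miRNAs. RefSeq (GRCm38.p6) held 3 of the 6, and also miR-3470b, which is shown because both probes of miR-3470a are listed for miR-3470b as well. Capitals mark the seed.
miR-706: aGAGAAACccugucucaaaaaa
miR-5118: aAGGUUAGgccagccuggu
miR-2861: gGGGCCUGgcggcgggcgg
miR-3470b: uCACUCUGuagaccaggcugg
The 4 seeds were all different, so these miRNAs form no seed family. They lie at chr6:120034290-120034311 (minus strand) for miR-706, chr16:55494770-55494788 (plus strand) for miR-5118, chr2:32712819-32712837 (minus strand) for miR-2861 and chr16:44013885-44013905 (plus strand) for miR-3470b. The letters that the longest miR-3470a probe reads lie whole inside miR-3470b, so the arrays cannot tell these miRNAs apart.

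What some members share is read from the probes. A probe is the complement of the RNA it captures, and the following pairs are printed because each partner carries letters of the other on the opposite strand. Capitals mark the shared letters, which are each other's reverse complement within a pair.
miR-1196-5p: aggcaGAGGCAGGt
miR-709: tcctCCTGCCTC
miR-3470a: CCAGCCTGGTctaca
miR-5118: ACCAGGCTGGcct
The shared run was 8 letters for miR-1196-5p and miR-709 and 10 letters for miR-3470a and miR-5118. The other pairs of members were compared by the mature sequence where RefSeq held it, and otherwise by the longest probe. Over these pairs, the longest shared run on either strand was 6 letters, between miR-2861 and either miR-3470a or miR-5118. The partners of a pair thus carry the same letters on opposite strands.

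A stretch of a RefSeq promoter (GRCm38.p6), 1 of 32851 promoters searched, holds letters of 4 of the members. It was picked because no other promoter with the miR-3470a letters held letters of more members. The stretch holds neither the whole of mature miR-706 nor the letters of its longest probe. It lies upstream of Gm41953 at chr1:133026669-133026759 on the minus strand and is 91 bases long.
Gm41953: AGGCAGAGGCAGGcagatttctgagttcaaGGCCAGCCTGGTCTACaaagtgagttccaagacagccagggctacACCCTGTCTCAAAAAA
Capitals mark the member letters. Bases 1 to 13 are those of the shorter miR-1196-5p probe, bases 31 to 42 are letters of mature miR-5118, bases 33 to 46 are the shorter miR-3470a probe, and bases 76 to 91 are letters of mature miR-706 that its shortest probe reads. On the strand printed, miR-5118 and miR-706 run as they stand, whereas the probes of miR-1196-5p and miR-3470a read along it, so these miRNAs come from the other strand. The letters read by the shorter miR-709 probe overlap those of the shorter miR-1196-5p probe by 7 bases. This stretch lies at chr2:173148331-173148347 on the minus strand, and capitals mark the overlap.
Gm36691: aggcagAGGCAGGagga
The RNA that the miR-709 probe reads also runs with this strand. Letters of miR-709 beyond its probes were not compared, so its full overlap with miR-1196-5p is not given. The letters of miR-2861 stood in neither stretch.

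The hairpin of miR-5118 in RefSeq is shown because it holds letters of other members. It lies at chr16:55494731-55494797 on the plus strand.
Mir5118: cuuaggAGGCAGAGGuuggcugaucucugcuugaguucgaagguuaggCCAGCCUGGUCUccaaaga
Capitals mark 9 letters of the miR-1196-5p probe at bases 7 to 15 and 12 letters of the miR-3470a probe at bases 49 to 60. They stand in the same order and orientation as in the promoter stretch. RefSeq places Mir706 inside the protein-coding gene Wnk1 (chr6:120034228-120034311), Mir709 inside the protein-coding gene Rfx1 (chr8:84086099-84086186) and Mir5118 inside the long non-coding RNA Gm45968. Mir3470a (chr6:83090311-83090387) and Mir2861 (chr2:32712807-32712888) overlapped no other RefSeq gene.

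Some of these letters stood at the same spacing in more than 1 promoter. The 32851 promoters searched belong to 27025 genes, so those of 1 gene may overlap and be counted more than once. The window of each promoter ran over 300 bases, 250 before to 50 after the start of transcription, and both strands were searched. The letters CCAGCCTGGTCTAC of miR-3470a stood in 40 promoters (0.122%). GGCCAGCCTGGT of miR-5118, which overlaps that motif, stood in 49 (0.149%), of which 31 also held the miR-3470a letters 2 bases downstream. The 12-base miR-5118 probe of exactly these letters was detected on no array, and the 13-base probe that also holds them on 2. AGGCAGAGGCAGG of miR-1196-5p stood in 34 promoters (0.103%). In 2 of these, that of Gm41953 among them, it began 32 bases before the miR-3470a letters. For miR-706 the motif was trimmed to GAAACCCTGTCTC, the first 13 of the 19 letters that its longest probe reads. It stood in 31 promoters (0.0944%), and in 6 of these it began 48 bases after the miR-3470a letters. In every promoter where one of these 3 motifs stood with that of miR-3470a, the spacing was the one given, which for miR-5118 follows from the overlap of the motifs. The shortest miR-706 probe, detected on no array, reads the 16 letters ACCCTGTCTCAAAAAA. These stood with the miR-3470a letters in 1 promoter, that of Gm41953, where they began 43 bases after. The stretch between is shorter there than in the 6 promoters with the other miR-706 motif, so the spacing of miR-706 letters varied. AGGCAGGAGGA of miR-709 stood in 54 promoters (0.164%) and CGGCGGGCGG of miR-2861 in 339 (1.03%), none of them with the miR-3470a letters.

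**Figure D1:**
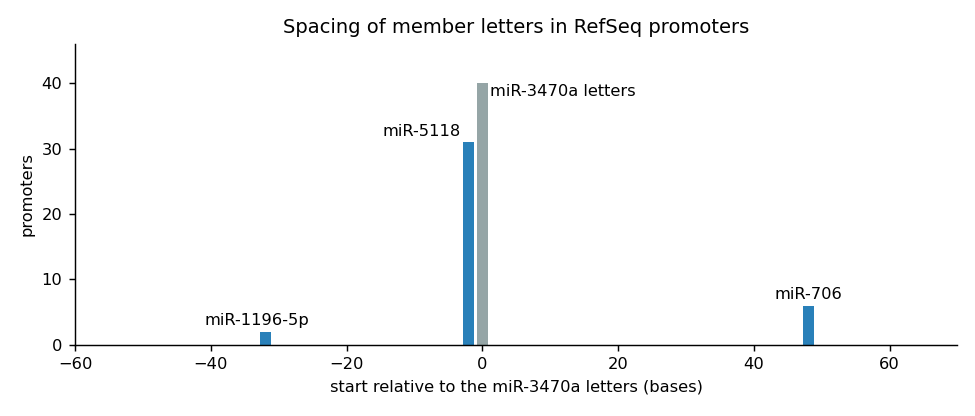
Start of the motif given in the text for each of miR-1196-5p, miR-5118 and miR-706 relative to the start of the miR-3470a letters, in bases (x axis), by number of RefSeq promoters with both (y axis). These motifs stand at -32, -2 and 48 bases in 2, 31 and 6 of the 40 promoters (grey bar) that hold the miR-3470a letters, and the other miR-706 letters of the Gm41953 promoter are not plotted.

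Among the longest probes of the miRNAs, few of equal length stood in so many promoters. Only the longest probe of each miRNA outside the members was counted for comparison, so shorter probes are left out. The 15-letter miR-3470a probe (CCAGCCTGGTCTACA) stood in 39 promoters, against a median of 0 and a highest count of 8 over the 171 other probes of that length. The 14-letter miR-1196-5p probe (AGGCAGAGGCAGGT) stood in 10, against a highest count of 8 over 119 other probes. The 12-letter miR-709 probe (TCCTCCTGCCTC) stood in 32, against a median of 5 and a highest count of 26 over 13 others. By contrast, the longest probe of miR-706, of 19 letters, stood in 2 promoters and that of miR-5118, of 14 letters, in 1, counts that 1 and 25 other probes of their lengths also reached. The miR-2861 probe CCGCCCGCCG, made of G and C alone, stood in 339 promoters, and the only other longest probe of its length stood in 252. Nothing in these letters tied miR-2861 to the label B1-like, since it shared at most 6 letters in a row with other members. It is kept in what follows as a listed member. No B1 consensus was used here, so likeness to the repeat was not measured for any member. Letters of miR-1196-5p and the trimmed miR-706 motif stood at a spacing from those of miR-3470a, in 2 and 6 promoters. miR-5118 shares letters with miR-3470a. miR-709 shares letters with miR-1196-5p but stood in no promoter with the miR-3470a letters.

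Over all miRNAs the IL-6 arrays were on average brighter than the controls. Detected miRNAs numbered 313 and 300 on the IL-6 arrays and between 268 and 294 on the control arrays. The 75th percentile of the probes detected on every array, by which arrays were scaled, was 440.03 and 369 intensity units with IL-6 and between 248 and 396 in controls. Its mean with IL-6 was 1.21 times that in controls. All 6 listed adipocyte and mesenchymal miRNAs were detected on every array, with summed intensities of 6532 and 8383 units with IL-6 and between 5203 and 7996 in controls. None of 4 muscle, 4 blood, 1 liver, 2 neural and 2 epithelial miRNAs was detected on any array, blood ones included (sums of 2.23 and 3.98 with IL-6 and between 3.43 and 4.59 in controls). The IL-6 arrays lay in row 2 of the slide and the controls in row 1, so row and group cannot be told apart.

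Of the members, 4 were brighter on both IL-6 arrays than on any control array in every detected probe, miR-5118 was above background with IL-6 alone, and miR-2861 did not separate the groups. By the mean over probes, 13% of the 299 tested miRNAs were higher on both IL-6 arrays than on every control array, and 21.7% were lower. The members were picked with this contrast known, so nothing is read from their count. Values are scanner intensities with background subtracted, scaled between arrays, and log2 differences are IL-6 minus control with limma's standard error (SE). A level in bulk RNA cannot tell fewer cells that make an RNA from less of it per cell.

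miR-1196-5p differed most. Its scaled intensity was 48.0 and 32.2 with IL-6, against 13.5, 20.8, 12.6 and 16.4 on control arrays 1 to 4. Both IL-6 arrays lay above all controls, and IL-6 array 1 was the brighter. On the log2 scale the means were 5.30 ± 0.41 with IL-6 (SD, n = 2) and 3.95 ± 0.33 in controls (SD, n = 4), a difference of 1.34 ± 0.25 (SE) or 2.54-fold. It was detected on both IL-6 arrays and on 3 of 4 control arrays, so it entered the comparison through the IL-6 arrays alone.

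miR-706 gave nearly the same value on both IL-6 arrays. Its scaled intensity was 33.4 and 34.0 with IL-6, against 15.5, 11.9, 19.95 and 18.8 in controls. The lowest IL-6 array exceeded the highest control by 0.74 on the log2 scale, the widest such gap of the 6 members. The log2 means were 5.07 ± 0.02 with IL-6 (SD, n = 2) and 4.02 ± 0.34 in controls (SD, n = 4), a difference of 1.05 ± 0.21 (SE) or 2.08-fold. Here the controls carried nearly all of the spread.

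miR-3470a, which stands for miR-3470b as well, measured 93.8 and 117 with IL-6, against 59.3, 44.9, 76.7 and 49.9 in controls. Control array 3 came closest, 0.29 below the lower IL-6 array on the log2 scale. The log2 means were 6.71 ± 0.22 with IL-6 (SD, n = 2) and 5.82 ± 0.34 in controls (SD, n = 4), a difference of 0.89 ± 0.23 (SE) or 1.85-fold. IL-6 array 2 was the brighter of its group, the reverse of the order for miR-1196-5p.

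miR-709 was bright on every array and differed less. Its scaled intensity was 767 and 952 with IL-6, against 668, 623, 593 and 655 in controls. The groups did not overlap, with a gap of 0.20, and the controls lay closer together than for any other member above background. The log2 means were 9.74 ± 0.22 with IL-6 (SD, n = 2) and 9.31 ± 0.08 in controls (SD, n = 4), a difference of 0.43 ± 0.10 (SE) or 1.35-fold.

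miR-5118 was at the edge of detection. Its scaled intensity was 6.69 and 8.50 with IL-6, against 3.27, 3.19, 3.89 and 2.76 in controls, and no control array was well above background. Values under 6.25 were set to that floor, which put all 4 controls at 2.64 on the log2 scale and the IL-6 arrays at 2.74 and 3.09. Of its 3 probes, 1 was detected, on the 2 IL-6 arrays. That probe was at least 1.02-fold higher with IL-6, a bound set against the lowest detected signal of each control array, so little can be said of its size. Like miR-1196-5p it entered the comparison through the IL-6 arrays alone.

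miR-2861 measured 823 and 909.9 with IL-6, against 947, 849, 777 and 1027 in controls. The IL-6 values lay inside the range of the controls. The log2 means were 9.76 ± 0.10 with IL-6 (SD, n = 2) and 9.81 ± 0.18 in controls (SD, n = 4), a difference of -0.05 ± 0.12 (SE).

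**Figure D2:**
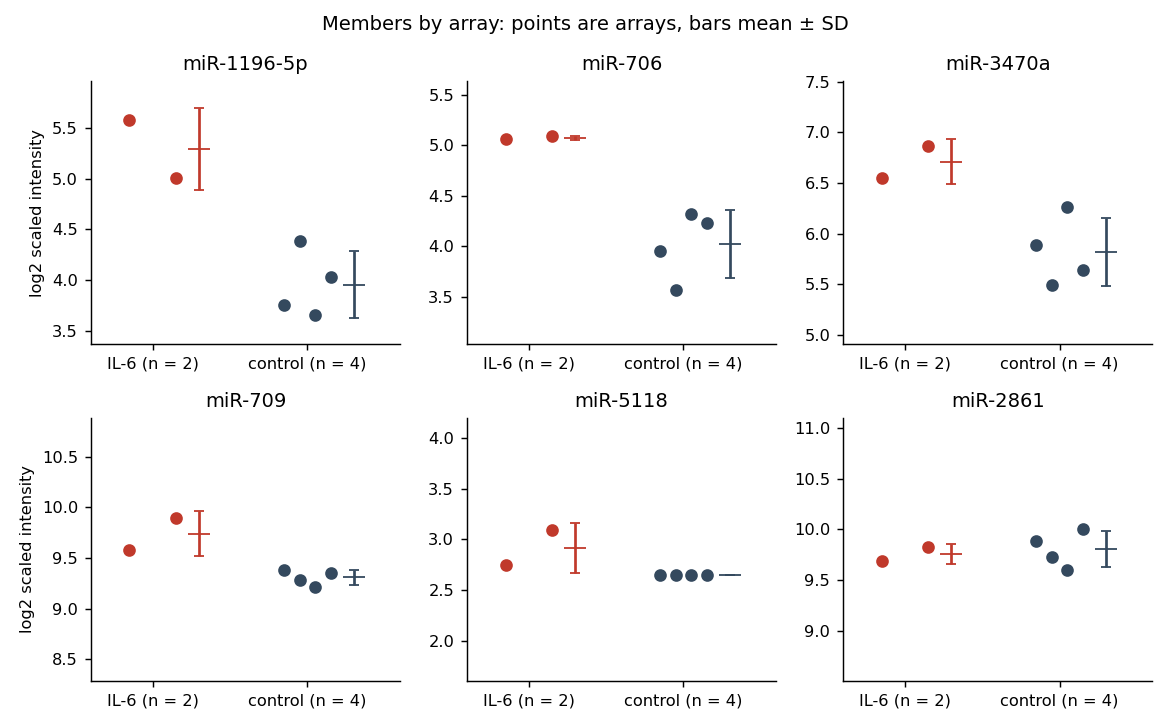
Log2 scaled intensity (y axis) of each member on the 2 IL-6 arrays (red, left) and the 4 control arrays (dark, right), with mean ± SD beside the points. Axes cover the same span of log2 units but start at different levels, and the 4 control values of miR-5118 lie at the floor of 2.64. Groups stand apart in 5 panels and overlap for miR-2861.

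Read over the list, 5 of 6 members were higher on both IL-6 arrays than on every control array, where 13% of the 299 tested miRNAs were. None was lower on both, where 21.7% of tested miRNAs were. A difference above 0.5 was seen for 3 of 6 members and 11.4% of tested miRNAs. The members were picked with this contrast known, so nothing is read from these counts. Ranked by difference among the 299, the members stood at 2 (miR-1196-5p), 7 (miR-706), 18 (miR-3470a), 39 (miR-709) and 168 (miR-2861). No rank is given for miR-5118, because its controls lie at the floor. The same differences were known when the members were picked, so nothing is read from the ranks. miR-1196-5p also entered the comparison through the IL-6 arrays alone. Members of either orientation were among those higher with IL-6, miR-5118 with its controls at the floor. In the promoter stretches shown, miR-1196-5p and miR-3470a come from one strand, and miR-706, miR-709 and miR-5118 from the other. No letters are common to all of these, and miR-709 is placed by its overlap with miR-1196-5p in 1 promoter. The median difference of the 6 was 0.66, and it was also 0.66 over the 4 that were detected on all 4 control arrays. With normexp background correction, which put miR-1196-5p on 3, miR-706 on 4 and miR-5118 on 6 arrays at its floor, 1 member had groups apart and the median was 0.047. The median of all tested miRNAs was -0.02, and their 10th and 90th percentiles were -0.23 and 0.55. With limma and Benjamini-Hochberg adjustment, 1 of 299 miRNAs passed the threshold of 0.05 and was higher with IL-6 (0.334%). It was not among the members. With other processing 4 of 6 members were past the threshold without scaling (34 of all 299), 4 with spike-in scaling (29), 4 with the brightest probe (14), 3 with a floor of 1 (7), 2 when control array 4 was left out (31) and 1 when IL-6 array 1 was (5). Nothing is read from these counts either.

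**Figure D3:**
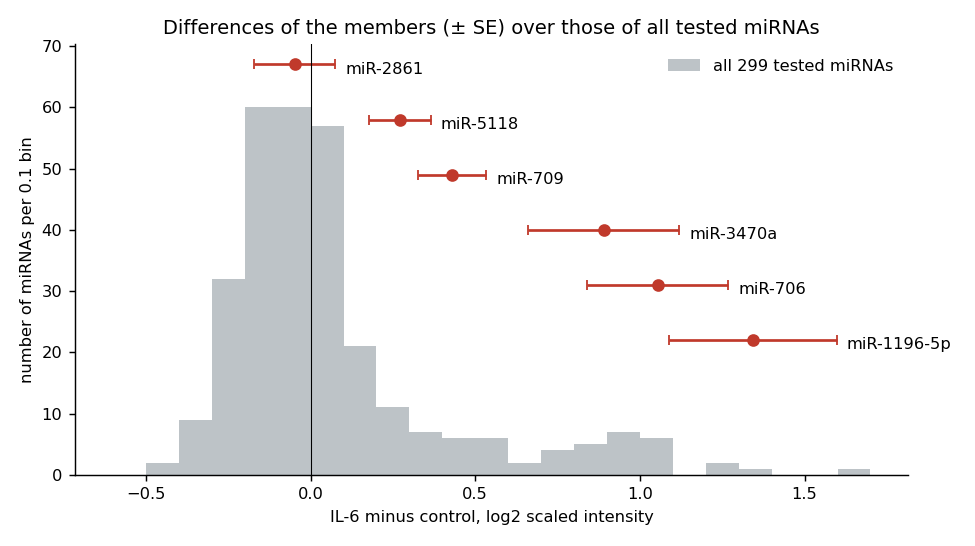
IL-6 minus control on the log2 scale (x axis) for the 6 members (red points with limma's SE) over a histogram of the 299 tested miRNAs (grey, number per 0.1 bin). The height of a red point has no meaning. The members run from -0.05 for miR-2861 to 1.34 for miR-1196-5p, and the error bar of miR-5118 leaves out the spread of controls held at the floor.

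Within miR-1196-5p and within miR-3470a, the probes gave like differences. In each case the longer probe also reads the letters of the shorter one on the same arrays, so their likeness is not separate support. The miR-1196-5p probes of 13 and 14 bases averaged 35.7 and 44.6 scaled units with IL-6, against 13.1 and 18.5 in controls. Their differences were 1.47 and 1.26 on the log2 scale. On both IL-6 arrays 100% of the spots of the 13-base probe were well above background, against 10.5%, 100%, 0% and 65% of spots on control arrays 1 to 4. The controls thus lay around the limit of detection for this probe. The 15-base probe of miR-3470a measured 102 and 123 with IL-6, against 62.2, 47.9, 79.4 and 53.4 in controls, and it was detected on every array. Its difference was 0.91, close to the 0.87 of the 14-base probe.

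Detection of miR-706 varied with probe length. Its probes of 16 and 17 bases were detected on none of the 6 arrays. The probe of 18 bases averaged 26.4 with IL-6 and 13.5 in controls, and that of 19 bases 100.4 with IL-6 and 49.9 in controls. Despite these unlike levels, the differences were 0.99 and 1.03. On the 19-base probe the values were 100.2 and 100.7 with IL-6, against 47.1, 36.6, 60.8 and 55.2 in controls, and the groups did not overlap.

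The probes of miR-709 differed most from each other. The one of 11 bases averaged 349.6 with IL-6 and 225 in controls, and the one of 12 bases averaged 1369 with IL-6 and 1045 in controls. Their differences were 0.63 and 0.38. On the 12-base probe the values were 1234 and 1505 with IL-6, against 1099, 1022, 983 and 1075 in controls, and the groups did not overlap. For miR-5118 the detected 13-base probe averaged 12.7 with IL-6 and 6.70 in controls. On it, 66.7% and 72.7% of spots were well above background with IL-6, against 0% on each control array. Both miR-2861 probes, of 9 and 10 bases, gave differences near 0 (-0.04 and -0.05).

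**Figure D4:**
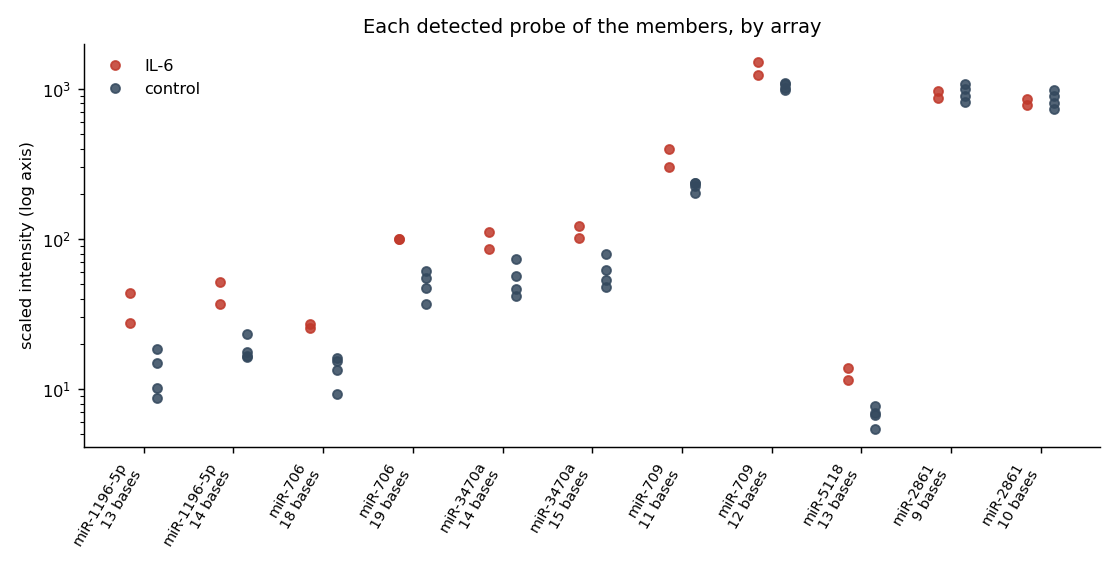
Scaled intensity (y axis, log scale) of each probe detected on at least 1 array, by miRNA and probe length in bases (x axis), with IL-6 arrays in red on the left of each pair and control arrays dark on the right. Groups stand apart for every probe except the 2 of miR-2861, and levels of different probes are not comparable.

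The differences varied between slide columns. IL-6 array 1 and control array 3 shared slide column 3, and IL-6 array 2 and control array 4 shared column 4, so each column holds 1 array per group. For miR-1196-5p the log2 difference was 1.93 in column 3 and 0.98 in column 4. For miR-3470a it was 0.29 in column 3 and 1.23 in column 4, so the order of the columns was turned round. miR-706 gave 0.74 and 0.85, and miR-709 gave 0.37 and 0.54. These 4 were above 0 in both columns, whereas miR-2861 gave 0.08 in column 3 and -0.17 in column 4. For miR-5118 no difference is given, since its control values lie at the floor. The part of the slide in these differences was not tested.

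The control arrays, which share 1 condition, show that the members did not vary as a block. Scaling narrows most miRNAs: the median SD over controls was 0.30 before and 0.12 after it (log2, 264 miRNAs detected on all 6 arrays). For miR-709 the SD over controls was 0.34 before scaling and 0.08 after it, and for miR-2861 it was 0.41 before and 0.18 after. miR-706 and miR-3470a went the other way. Before scaling miR-3470a measured 57.5, 49.7, 53.3 and 47.9 intensity units on the controls, an SD of 0.12, and after scaling the SD was 0.34. For miR-706 the SD was 0.20 before and 0.34 after. Only 19 of the 264 miRNAs (7.20%) had a smaller spread before scaling, these 2 among them. Control array 3, whose 75th percentile of 248 was the lowest, is where scaling raised them most. miR-1196-5p had a wide spread both before (0.58) and after (0.33).

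**Figure D5:**
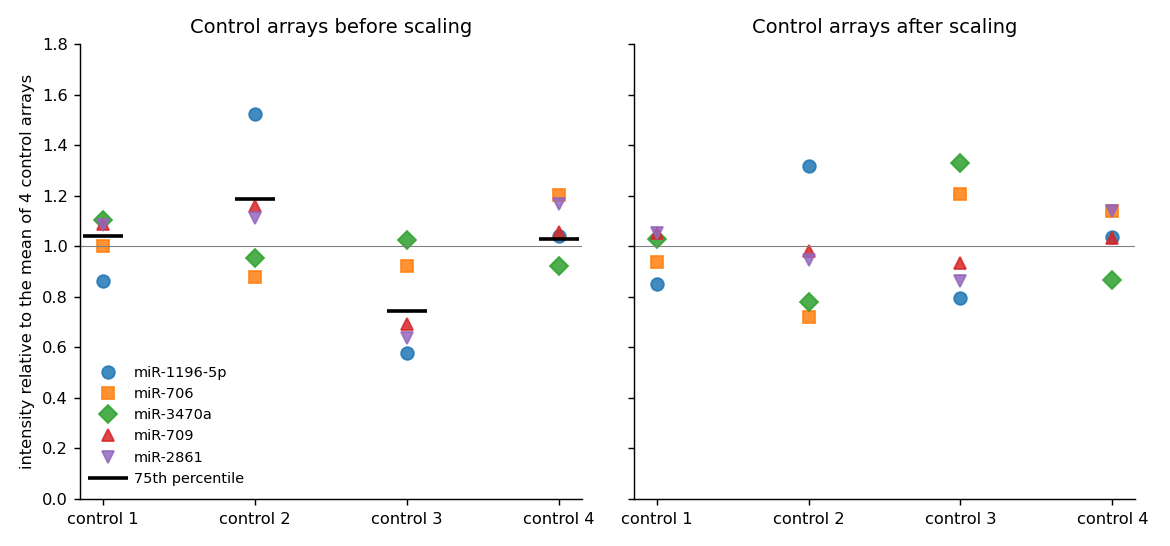
Intensity of 5 members on each control array relative to the mean of the 4 (y axis), before scaling (left panel) and after it (right panel), with the 75th percentile of each array as a black bar. On control array 3 miR-709, miR-2861 and miR-1196-5p lie under the bar before scaling, while miR-3470a and miR-706 lie well above it.

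Before scaling the IL-6 values were also higher. miR-3470a measured 115 and 121 intensity units with IL-6, against at most 57.5 in controls, and miR-706 41.1 and 35.2 with IL-6, against at most 18.1 in controls. miR-709 measured 945 and 984 with IL-6, against at most 690.3 in controls. The ratio of unscaled means was 3.05 for miR-1196-5p, 2.53 for miR-706, 2.27 for miR-3470a, 1.62 for miR-709 and 1.15 for miR-2861. Each exceeds its scaled fold, and the mean 75th percentile with IL-6 was 1.21 times that in controls.

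Other miRNAs related by sequence added no second reading. miR-1195, which shares 11 letters in a row with miR-5118, and miR-1894-5p and miR-665-5p, which share 10 each with miR-1196-5p, were detected on none of the arrays. Neither was miR-1196-3p, from the other arm of the miR-1196 hairpin. Among the probes of the members, only the 2 of miR-3470a were also listed for miR-3470b, and probes of other miRNAs were not searched for that name.

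The 5 miRNAs whose pattern over the 6 arrays was most like the mean of the members, by root mean square distance of log2 values centred on their own mean, were miR-5107-5p, miR-681, miR-1940, miR-6394 and miR-5119. Their distances lay between 0.11 and 0.15, against a median of 0.35 for the other tested miRNAs. Chosen to be like the members, they necessarily differ in the same direction. miR-681 differed by 0.69 ± 0.12 and miR-1940 by 0.76 ± 0.16 (SE), and miR-5107-5p by 0.49 ± 0.11.

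The members can be set beside 2 other groups of repeat-like names. Of 5 miRNAs named miR-3473, listed as resembling the B2 repeat, 3 were tested. miR-3473a measured 9.09 and 8.16 on the log2 scale with IL-6, against 7.18, 7.07, 8.52 and 7.67 in controls, a difference of 1.01 ± 0.47 (SE). miR-3473b measured 11.81 and 10.85 with IL-6, against 9.88, 9.85, 11.32 and 10.41 in controls, a difference of 0.96 ± 0.49 (SE). Both overlapped between the groups through control array 3, whereas miR-706 and miR-3470a, also highest of the controls on array 3, did not. miR-3473e differed by 0.02. Of the 61 miRNAs named miR-297, miR-466, miR-467 or miR-669, 12 were tested, with a median difference of 0.89. Of these, 9 were higher on both IL-6 arrays than on every control and 1 was lower. Over all 299 tested miRNAs the shares were 13% higher and 21.7% lower. Both groups were chosen with earlier results of these data known, so nothing is read from the counts. Whether the members differ from either group in their response was not tested.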

How the data were processed

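MicroRNA was measured on 6 single-colour Agilent mouse arrays, 2 of IL-6-treated and 4 of untreated 3T3-L1 adipocytes, grouped by the sample titles. The authors extracted spot values with Agilent Feature Extraction 10.10.1.1 (per the file headers). The deposited intensity values had a spatially fitted background subtracted, per the file headers, and dim spots were given no surrogate value, so values below 0 occur. The deposited flags of each spot mark outlying, uneven and well-above-background spots. The deposited series table held the scanner's total intensity per probe (largest difference 0), linear and uncentred. The genome build of the listed probe positions was not used; RefSeq coordinates are GRCm38.p6.

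Spots with outlier or non-uniformity flags were dropped and the rest averaged by probe. Detection of a probe on an array needed a share of 0.5 or more of its spots well above background. To scale the arrays, values were divided by the array's 75th percentile over the 502 probes (of 3105) detected on every array, then multiplied by the arrays' mean percentile. The linear mean over a miRNA's probes was used, values under 6.25 (the highest of the arrays' lowest detected miRNA signals) were set to that floor, and log2 was taken, which understates differences of dim miRNAs. The 299 of 1247 miRNAs detected on all 4 control or both IL-6 arrays were tested, 35 of them through the IL-6 arrays alone. limma 3.58.1 in R 4.3.3 (lmFit, eBayes with a mean trend, two-sided, Benjamini-Hochberg, threshold 0.05) was fitted over all 6 arrays without covariates and tested on simulated data. No spot was saturated. The hybridisation spike-in gave 4.66 and 4.61 (log10) on the IL-6 arrays and between 4.59 and 4.66 on controls, and the labelling spike-in was out of the scanner software's range on all 6.

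The members, the other lists and the tests were chosen with earlier results of these data known. Named were all members, other array miRNAs sharing a run of at least 10 bases with one, miR-3470b, miR-1196-3p, and the 5 tested miRNAs nearest to the members' mean pattern. The groups named for comparison and the marker lists of other cell types were chosen in the same way. RefSeq matched 1017 of 1247 array miRNAs by name. Alternatives changed the scaling, background correction, detection filter, probe summary, source of values, floor and blocks, and left out each array in turn.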

Additional observations from a re-analysis of the deposited data

How the results depend on the processing

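Of 299 miRNAs, 1 passed limma's threshold. The number was 34 without scaling and 29 with spike-in scaling, all higher with IL-6, where the median of all tested miRNAs moved to 0.27 (log2). It was 2 with all-probe scaling, which moved that median to -0.13, 2 without the detection filter, 14 with the brightest probe, 7 with a floor of 1, 3 with the scanner's total signal and 2 with the series table. It was 0 with normexp background correction, over miRNAs detected on all 6 arrays and with slide column as a block, where 30, 56 and 50 had an unadjusted limma p under 0.05 (68 as reported). With arrays left out it ran between 1 and 31, the 31 (23 higher, 8 lower) coming without control 4. The members' median of 0.66 was 0.95 without scaling and 0.96 with spike-in scaling (0.69 above the median of all in both), 0.55 with all-probe scaling (0.68 above it), 0.89 with the brightest probe, 0.97 with the lower floor, 0.76 with total signal and 0.76 with the series table. It was 0.33 within slide column 3, between 0.50 and 0.82 with arrays left out (lowest without IL-6 array 2), and 0.89 without miR-2861, a setting added after the data were seen. Normexp gave 0.047 and left 1 member with groups apart, with several members at its floor and a difference of -0.0036 for miR-706 and 0 for miR-5118. With only miRNAs detected on all 6 arrays 3 members had groups apart, fewer by construction, and with total signal 4. In all other alternatives run the differences of miR-1196-5p, miR-706, miR-3470a and miR-709 stayed above 0, and miR-2861 was above 0 in 7 of 21, spike-in scaling (0.25) the highest. Over all alternatives the difference ran between 0.09 and 1.93 for miR-1196-5p, 0.29 and 1.23 for miR-3470a, and 0.27 and 0.73 for miR-709, and its highest value was 1.35 for miR-706. miR-5118 and the control values of miR-1196-5p lie near background, which limits both, and the difference of miR-5118 cannot fall below 0 while its controls are at the floor. Replicate numbers appear in both groups, but only 2 pairs exist. Their deviations from the group means correlated at 0.06 and -0.34. The deviations of the 2 IL-6 arrays mirror each other, so these values are not independent. They cannot decide whether arrays of the same number were paired. The replicate block gave 0 calls (50 at an unadjusted limma p under 0.05) and a median of 0.71.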
